A study of Mus musculus with 44 samples.

Results

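The 150 probes described here were those whose signal differed most from mouse to mouse in white adipose tissue (fat), out of 25697 probes on an Illumina mouse beadchip. They were chosen on the authors' processed log2 values. Each probe was averaged over the liver, fat and brain arrays, and the 200 probes with the largest fat mean minus the larger of the other means were left out. Of the remaining 25497, the members were the 150 with the largest standard deviation (SD) over the 12 fat arrays once the mean of each genotype had been subtracted. Their SD ran from 1.39 down to 0.53 with a median of 0.615, against a median of 0.0858 over the ranked probes. Just inside the limit lay ILMN_2643580, ILMN_2591308 and ILMN_2624695 with SDs of 0.532, 0.530 and 0.530. Just outside lay ILMN_2706393, ILMN_2948272 and ILMN_2624153 with 0.529, 0.529 and 0.528. Spread between fat arrays is therefore what the members were chosen for, and everything said below of that spread is a description without a test.

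The study measured total RNA of liver, fat and brain cortex from female B6D2F1/J mice aged 8 to 12 months, either wild type (WT, Surf1+/+) or with both copies of Surf1 disrupted in the whole animal (KO, Surf1-/-). There were 8 WT and 8 KO livers, 6 WT and 6 KO fat samples and 8 WT and 8 KO cortices, and no label gives a treatment beyond genotype. All groups shared the hybrid strain and the sex, and no label names the fat depot. Arrays are named by tissue, genotype and the number in their label, and the same number recurs across tissues for 12 fat and liver arrays and for 9 fat and brain arrays. P-values set a difference between genotypes against the spread between these samples.

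Surf1 is an assembly factor of cytochrome c oxidase, the last enzyme complex of the mitochondrial respiratory chain, which passes electrons to oxygen. White adipose tissue stores triglyceride in adipocytes and also holds blood vessels, fibroblasts and immune cells. It releases fatty acids in fasting and secretes hormones such as leptin and adiponectin.

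The members are given by probe identifier alone. In all, 67 probes carry the name of a marker of a tissue or cell type. Of adipocyte names, 0 of 10 were over 1 log2 brighter in fat than in both other tissues, with 7 of 10 detected. Hepatocyte names gave 0 of 8 in liver, with 0 detected, and neuron names 0 of 6 in brain, with 1 detected. Names of other cell types, such as muscle and immune cells, also gave 0 in fat, where no such excess need be seen. The names deposited with the values could therefore not be used to say which genes the members are, to check the fat label against adipocyte markers, or to read the level of other cell types in a fat sample. The targeted gene could not be read either, so no genotype label was checked. In whole tissue, fewer cells of a type and less RNA per cell cannot be told apart.

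The fat arrays were similar in the share of probes detected and in intensity, while RNA quality was not examined. Between 46.4% and 51.1% of probes were detected above background on each, and the median intensity lay between 111.8 and 133.8. The detected share was 49.2% ± 1.27 (SD, n = 6) in WT and 48.9% ± 1.66 (SD, n = 6) in KO, a difference of -0.24 points (two-sided exact permutation p = 0.775). No 2 fat arrays correlated below 0.967 over all probes.

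Levels below are background-corrected, quantile-normalized log2 signals, on which an undetected probe sits near 4.5 to 5. Of the 150 members, 96 were detected on all 12 fat arrays and 131 on at least 6. The least often detected member was seen on 2 arrays. The median member stood at 7.88 in fat, against 5.02 over all probes. In liver the medians were 6.76 and 5.11, and in brain 6.33 and 4.99. On this scale the members' fat SD ran from 0.53 to 2.24, with a median of 0.996.

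A single KO sample carried far more of the variation than any other array. Fat_Surf1_KO_237 held 32.3% of the members' squared deviations from the genotype mean, where an even share is 8.33%. Over all detected probes the same array held 12.2%. Fat_WT_136 was next with 10.4% of the members' squares, about its share of 10.5% over all detected probes. Each of the other arrays held between 4.54% and 7.03%. With absolute deviations in place of squares the share of Fat_Surf1_KO_237 was 16.7%.

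**Figure D1:**
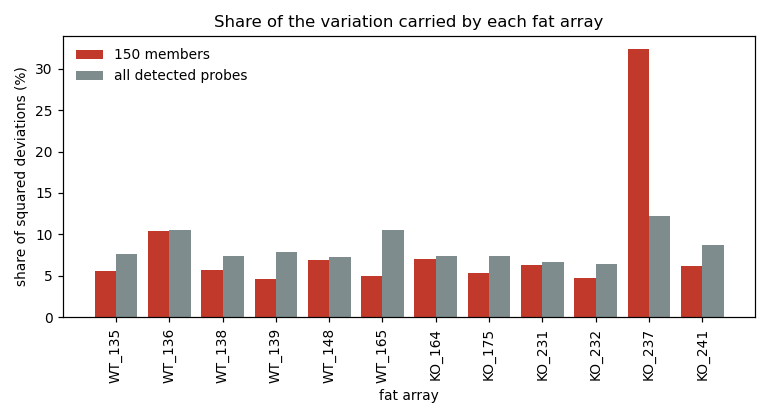
Share of the squared deviations from the genotype mean, in percent, carried by each of the 12 fat arrays (horizontal axis), for the 150 members (red bars) and for all detected probes (grey bars). Fat_Surf1_KO_237 held 32.3% of the members' squares and 12.2% of those of all detected probes.

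Member by member, the largest deviation fell on Fat_Surf1_KO_237 for 55 probes, upwards in 53 of them. It fell on Fat_WT_136 for 34 probes, upwards in 7. Fat_Surf1_KO_164 and Fat_Surf1_KO_175 each led for 11, Fat_WT_135 for 8 and Fat_Surf1_KO_231 for 7. The other 6 arrays each led for 3 to 5 members. In 63 members a single array held most of the squared deviation, and in 48 of these it was Fat_Surf1_KO_237. The largest deviation was upward in 96 members and downward in 54, and 53 of the 96 fell on Fat_Surf1_KO_237.

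The members fell into 22 groups when they were joined by the correlation of their deviations over the 12 fat arrays. Of these, 3 groups of at least 10 members held 102 probes, and 19 smaller groups held the other 48. Group 1 had 57 members, group 2 had 34 and group 3 had 11. The mean deviations of groups 2 and 3 ran opposite to each other (r = -0.89 over 12 arrays), while group 1 was nearly unrelated to group 2 (r = 0.04). The groups were made from these values, so the correlations describe them and test nothing.

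**Figure D2:**
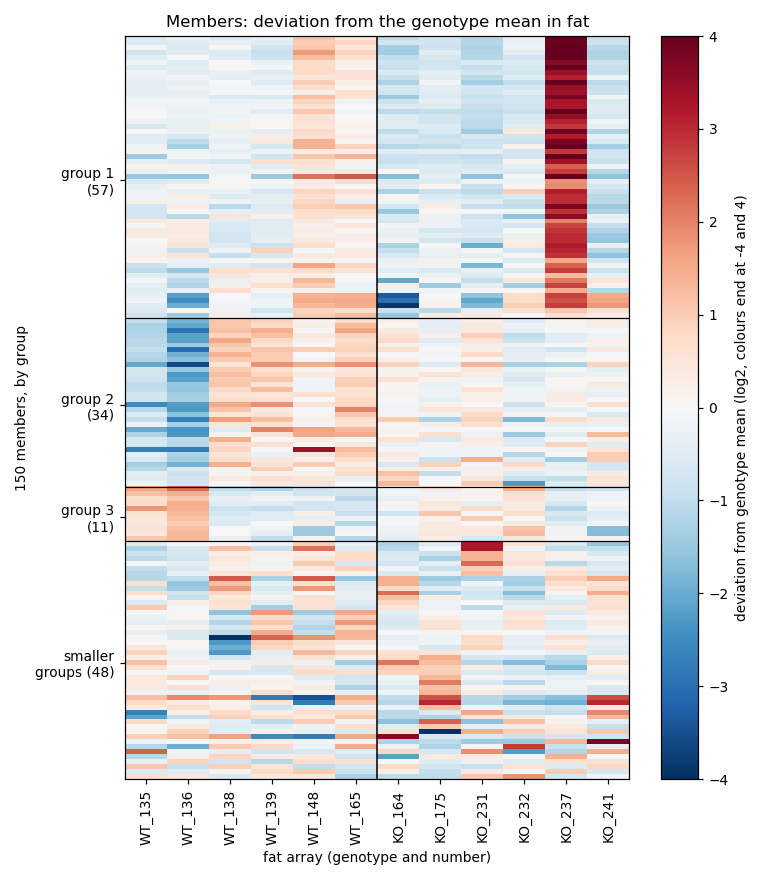
Deviation of each of the 150 members (rows, by group) from its genotype mean in log2 units on each of the 12 fat arrays (columns, WT left of the line and KO right). Group 1 (57 probes) is high on Fat_Surf1_KO_237, group 2 (34) is low on Fat_WT_136 and Fat_WT_135, group 3 (11) is high on the same arrays, and the 48 probes of the smaller groups have extremes scattered over many arrays.

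Group 1 was a large set of probes raised together in Fat_Surf1_KO_237. All 57 members were higher there than on any other KO array, by 0.78 to 6.48 log2 above the mean of the other KO arrays, with a median of 3.70. With that array left out of the SD, 49 of the 57 would not have been chosen. For these, the rise is what made them members. The group mean was 10.02 on Fat_Surf1_KO_237. On the other KO arrays it was 6.02 (Fat_Surf1_KO_164), 6.44 (Fat_Surf1_KO_175), 6.05 (Fat_Surf1_KO_231), 6.56 (Fat_Surf1_KO_232) and 6.27 (Fat_Surf1_KO_241). Fat_Surf1_KO_237 thus stood alone. Of the other KO arrays, Fat_Surf1_KO_164 and Fat_Surf1_KO_231 lay just below the lowest WT array and 3 lay within the WT range.

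Among the WT arrays the group mean was 7.35 on Fat_WT_148, 6.14 to 6.35 on 4 others, and between these levels on Fat_WT_165. Fat_WT_148 was the highest WT array for 36 members and Fat_WT_165 for 13. The rise on these arrays was far smaller than on Fat_Surf1_KO_237. Because 1 array decided the KO mean, KO stood at 6.89 ± 1.55 (SD, n = 6) with a median of 6.35, and WT at 6.56 ± 0.49 (SD, n = 6).

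The member of largest SD, ILMN_2638721, belonged to this group. In WT samples it read 4.65 (Fat_WT_135), 4.59 (Fat_WT_136), 6.10 (Fat_WT_138), 4.73 (Fat_WT_139), 8.34 (Fat_WT_148) and 8.63 (Fat_WT_165). In KO samples it read 4.43 (Fat_Surf1_KO_164), 5.72 (Fat_Surf1_KO_175), 6.06 (Fat_Surf1_KO_232) and 11.53 (Fat_Surf1_KO_237), and at most 4.51 on Fat_Surf1_KO_231 and Fat_Surf1_KO_241. The values of other probes below are listed in this order of numbers, lowest first, within each genotype. ILMN_2638721 was bright on Fat_Surf1_KO_237, Fat_WT_165 and Fat_WT_148. It was detected at 5.72 to 6.10 on Fat_WT_138, Fat_Surf1_KO_175 and Fat_Surf1_KO_232, and undetected on the other fat arrays. It was detected on 0 liver and 0 brain arrays.

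The 3 members closest to the group's mean profile told the same story with a cleaner contrast. ILMN_2667428 read 4.76, 5.10, 4.75, 4.95, 6.42 and 5.79 in WT and 4.88, 5.18, 4.79, 5.52, 10.13 and 5.01 in KO. ILMN_2681232 read 5.29, 4.87, 5.32, 4.61, 6.49 and 5.86 in WT and 4.54, 5.09, 4.67, 5.71, 10.68 and 4.80 in KO. ILMN_1240294 reached 9.48 on Fat_Surf1_KO_237 and lay between 4.43 and 6.01 on the other 11 arrays. Each went from background or near it to a bright signal on a single array, with smaller rises on Fat_WT_148 and Fat_WT_165.

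The third member by SD, ILMN_1215039, was grouped here but varied on more arrays. It read 8.44, 6.93, 8.80, 8.76, 10.27 and 10.37 in WT, and 4.58, 8.64, 6.71, 9.41, 11.22 and 10.21 in KO. Its lowest value was on Fat_Surf1_KO_164, where it lay at background, and its highest on Fat_Surf1_KO_237. Of the 57 members, 22 were detected on all 12 fat arrays and 14 on fewer than 6, so the group mixes probes that are always expressed in fat with probes seen there only in a few samples.

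Group 1 probes were often brighter in another organ than in fat. In brain, 25 of 57 were over 1 log2 brighter than in fat (43.9%, against 9.61% of all probes). In liver, 16 were (28.1%, against 8.67%). Only 2 were over 1 log2 brighter in fat than in both other tissues (3.51%, against 5.15%). Probes at background in all tissues have little room to differ. Of the group 70.2% were detected on most brain arrays, against 48.0% of all probes, and 50.9% against 42.1% in liver.

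The rise did not extend to the liver and brain arrays of the same number. The group's median difference from the other KO arrays was -0.12 in liver and -0.16 in brain, and 19 and 17 of the 57 members lay above the other KO mean. That array was the highest KO liver for 3 members (5.26%, against 13.2% of all probes) and the highest KO brain for 6 (10.5%, against 12.7%). Over liver arrays the group mean was 7.15 ± 0.12 (SD, n = 8) in WT and 7.18 ± 0.25 (SD, n = 8) in KO. In brain it was 7.77 ± 0.08 (SD, n = 8) and 7.75 ± 0.07 (SD, n = 8).

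Fat_Surf1_KO_237 had the highest detected share of the fat arrays, 51.1%, and the lowest median intensity, 111.8. Whether these move the group's values was not tested. Markers of other cell types could not be read under the deposited names, so their part in the rise was not tested either.

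**Figure D3:**
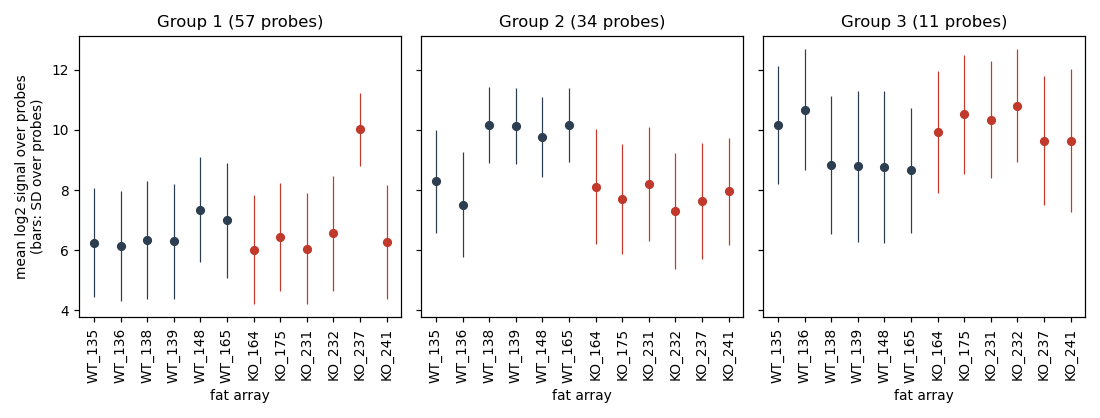
Mean normalized log2 signal over the probes of groups 1, 2 and 3 (one panel each) on each of the 12 fat arrays, WT dark and KO red, with bars showing the SD over probes. Group 1 stood at 10.02 on Fat_Surf1_KO_237 and at 6.02 to 7.35 on all other arrays, group 2 was lower on Fat_WT_135 and Fat_WT_136 than on the other WT arrays, and group 3 was higher there.

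Group 2 varied among the WT samples. Its mean was 10.16 on Fat_WT_138, 10.13 on Fat_WT_139, 9.77 on Fat_WT_148 and 10.16 on Fat_WT_165, but 8.30 on Fat_WT_135 and 7.51 on Fat_WT_136. The KO arrays lay between 7.29 and 8.20. Fat_WT_136 was the lowest WT array for 32 of 34 members and Fat_WT_135 for the other 2. WT stood at 9.34 ± 1.15 (SD, n = 6) and KO at 7.82 ± 0.34 (SD, n = 6).

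Set against the range of the 6 KO arrays, probe by probe, Fat_WT_136 was above every KO array for 1 of 34 members, within the range for 18 and below it for 15. Fat_WT_135 was above for 13 and within for 20. Fat_WT_138, Fat_WT_139 and Fat_WT_165 were each above every KO array for 31 members, and Fat_WT_148 for 30. Over all detected probes each WT array was above every KO array for 11.8% to 20.1% of probes. On these probes Fat_WT_136 thus lay at the level of the KO samples or lower, and the other 4 WT samples above it.

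The most variable member of the group, ILMN_1243403, read 8.25, 6.72, 10.83, 12.09, 11.73 and 12.11 in WT. In KO it read 7.06, 5.58, 7.45, 4.83, 4.88 and 7.04. The low WT values were those of Fat_WT_135 and Fat_WT_136, and Fat_WT_136 lay within the KO range. The KO minus WT difference was -4.15 log2 (SE 0.84) and did not pass (limma adjusted p = 0.0723).

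Closest to the group's mean profile were ILMN_3140813, ILMN_1256203 and ILMN_2872334. ILMN_3140813 read 9.01, 8.07, 11.08, 10.85, 10.13 and 10.65 in WT and 8.88, 8.34, 8.92, 8.16, 8.80 and 8.97 in KO. ILMN_1256203 read 8.47, 7.65, 10.83, 10.52, 9.97 and 11.01 in WT and 8.17, 7.78, 8.56, 7.90, 8.01 and 8.37 in KO. In both, the KO samples spanned less than 1 log2, and Fat_WT_136 fell below the lowest of them. ILMN_2872334 read 6.36, 4.65, 8.76, 9.05, 7.52 and 9.18 in WT and 5.35, 4.61, 5.33, 4.55, 4.99 and 4.88 in KO. There Fat_WT_136 lay within the KO range, near background, and was not detected.

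Most probes of group 2 were brighter in fat than in the other tissues. Of 34, 24 were over 1 log2 brighter in fat than in both liver and brain (70.6%, against 5.15% of all probes), even after the 200 probes with the largest such excess had been left out. The bases differ, since 94.1% of the group but 47.2% of all probes were detected on most fat arrays. Undetected probes have little room to be brighter in fat. The exceptions included 5 members brighter in liver than in fat and 4 brighter in brain. Of the 34, 28 were detected on all 12 fat arrays.

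In the livers and cortices of the same numbers the values were lower by far less, if at all. The members' median difference from the other WT livers was -0.08 for Liver_WT_135 and -0.16 for Liver_WT_136. In brain it was -0.12 and 0.01. The medians in fat were -1.18 and -2.13. Liver_WT_136 was nonetheless the lowest WT liver for 9 of 34 members (26.5%, against 10.3% of all probes), and 6 of 34 lay above the mean of the others there. The group means of Liver_WT_136 (6.64) and Liver_WT_135 (6.70) were the lowest of the WT livers, the others reaching from 6.74 to 7.03. For Brain_WT_136, 1 of 34 members was lowest and 18 lay above the mean of the others.

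Group 3 was the mirror image among WT samples. Its mean was 10.17 on Fat_WT_135 and 10.68 on Fat_WT_136, and 8.65 to 8.83 on the other 4 WT arrays. The KO arrays lay between 9.64 and 10.81. Fat_WT_136 was the highest WT array for 10 of 11 members. ILMN_2699477 read 7.41, 8.11, 4.86, 4.64, 5.05 and 5.24 in WT and 8.18, 8.74, 8.43, 9.78, 7.35 and 7.50 in KO. It was undetected on Fat_WT_138, Fat_WT_139 and Fat_WT_148, detected at 5.24 on Fat_WT_165, and brighter on all other fat arrays. ILMN_2671755, another probe close to the group's profile, read 12.40 and 12.66 on Fat_WT_135 and Fat_WT_136, and 10.41 to 10.78 on the other WT arrays, with KO arrays from 11.72 to 12.66.

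**Figure D4:**
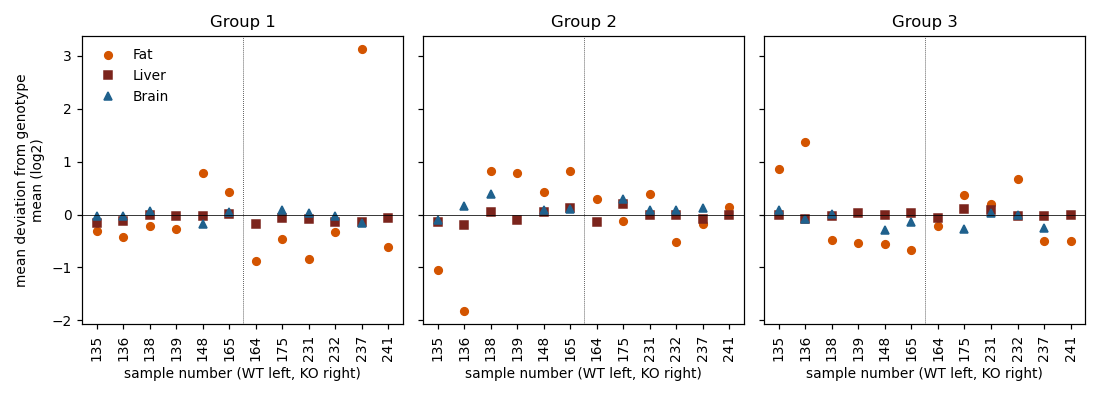
Mean deviation from the genotype mean (log2) over the probes of groups 1, 2 and 3 in fat (circles), liver (squares) and brain (triangles), by the number in the sample label, WT left of the dotted line and KO right. The large deviations, those of Fat_Surf1_KO_237 for group 1 and of Fat_WT_135 and Fat_WT_136 for groups 2 and 3, were in fat, and the liver and brain points of the same numbers lay near 0.

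The 19 smaller groups had 1 to 7 members each, and 10 of them were single probes. Group 4, with 7 members, was raised on Fat_Surf1_KO_231 by a mean of 1.95 log2, with 53.8% of its squares there. ILMN_1257575 of that group read 10.76 on Fat_Surf1_KO_231 and 5.96 to 8.16 on the other 11 arrays. Group 9, with 4 members, was raised on Fat_Surf1_KO_175 by 1.46. Group 7, also with 4, was low on Fat_WT_138 by a mean deviation of -2.85, with 70.8% of its squares on that array. Group 13 was the single probe ILMN_2686125, with a deviation of -4.65 on Fat_Surf1_KO_175. Group 15 was the single probe ILMN_2693295, which was detected on 3 fat arrays and read 9.84 on Fat_Surf1_KO_241, 7.37 on Fat_Surf1_KO_237 and at most 5.02 elsewhere in fat.

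Some members of the smaller groups were high or low on the same sample numbers in all tissues. In 7 members the deviations in fat correlated above 0.8 with those of the same-numbered livers (12 numbers) and also with those of the same-numbered cortices (9 numbers). That was 4.67% of the members, against 0.0934% of all probes (24 of 25697). The bases differ, since 82.7% of the members but 47.2% of all probes were detected on most fat arrays. All 7 belonged to the smaller groups and 0 to groups 1 to 3. The spread within liver and within brain had no part in choosing the members, though the mean levels of those tissues did, through the 200 probes left out. The points of a probe share its tissue's normalization, and most of these probes fall into a high and a low set of samples, so single correlations are not given.

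ILMN_2588946 was bright in fat on Fat_WT_138 (8.42), Fat_WT_148 (8.42), Fat_Surf1_KO_164 (7.53), Fat_Surf1_KO_237 (7.07) and Fat_Surf1_KO_241 (7.62), and read at most 4.95 on the other 7 fat arrays. In liver the same 5 numbers read 7.13 to 8.06 and the other 7 shared numbers at most 5.23. Detection matched between fat and liver for 12 of 12 numbers and between fat and brain for 9 of 9.

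ILMN_3140158 showed another set of numbers. It was near background in fat on Fat_WT_135 (4.46), Fat_Surf1_KO_164 (4.45), Fat_Surf1_KO_175 (4.98), Fat_Surf1_KO_232 (4.63) and Fat_Surf1_KO_237 (4.59), and read 7.04 to 7.94 on the other 7 arrays. In liver the same 5 numbers lay near background (Liver_Surf1_KO_237 at 4.93) and the other 7 read 8.16 to 9.43. Detection again matched for 12 of 12 and 9 of 9 numbers. High and low samples occurred in both genotypes for both of these probes.

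ILMN_2906473, the fourth member by SD, was high in fat on Fat_WT_135 (9.47), Fat_WT_136 (10.22), Fat_WT_138 (10.03) and Fat_WT_165 (9.80), and on Fat_Surf1_KO_175 (9.18) and Fat_Surf1_KO_241 (9.24). It read 4.81 to 5.65 on the other 6 fat arrays. The same 6 numbers were high in liver, at 8.17 to 9.76, against 4.64 to 5.10 on the other 6. Brain_WT_135 read 5.53, nearer to the low arrays than to the other high ones.

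ILMN_2943738, the fifth by SD, was at 4.70 in fat on Fat_WT_138 and far brighter on the other 11 arrays, up to 11.87 on Fat_WT_139. Brain_WT_138 read 4.52, the lowest brain value. Liver_WT_138 read 4.62, and 2 livers without a fat array of their number were as low, Liver_WT_581 at 4.59 and Liver_Surf1_KO_597 at 4.74. The other members of this kind were ILMN_1238691, with the same high numbers as ILMN_2588946, and ILMN_1228521 and ILMN_2662468, with Fat_WT_138 lowest in fat like ILMN_2943738.

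A member outside these 7, ILMN_2686125, was singled out after its values were seen. It read 5.93 on Fat_Surf1_KO_175, against 10.75 to 12.23 on the other 11 arrays. Liver_Surf1_KO_175 read 7.12, against 13.46 to 14.60 on the other 15 liver arrays. It read at most 6.05 on the brain arrays. Its low sample was the same in fat and liver.

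**Figure D5:**
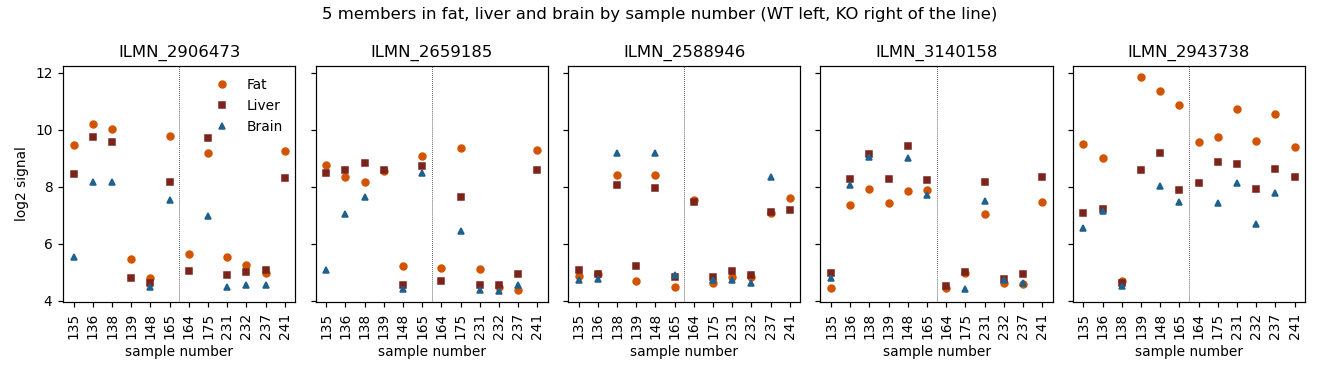
Normalized log2 signal of 5 members in fat (circles), liver (squares) and brain (triangles), by the number in the sample label, WT left of the dotted line and KO right. ILMN_2588946 was bright on 5 numbers and near background on the other 7 in fat and liver, and ILMN_2943738 was near background on 1 of these numbers, that of Fat_WT_138, in all 3 tissues.

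Over all 150 members this agreement between tissues was slight. The median correlation of same-numbered deviations was 0.07 between fat and liver, against 0.04 over all probes, and 23 members exceeded 0.5 (15.3%, against 8.07%). In group 1 the median was -0.10 and 2 of 57 exceeded 0.5. In group 2 these were 0.14 and 5 of 34 (14.7%), and in group 3 0.00 and 0 of 11. Between fat and brain the members' median was 0.07, and 24 exceeded 0.5 (16.0%, against 12.0%). There group 1 had a median of -0.18 with 1 of 57 above 0.5, and group 2 had 0.16 with 4 of 34. Group 3 had 0.35 with 5 of 11 (45.5%).

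Members also varied more than most probes within liver and within brain. Their median SD after subtracting the genotype mean was 0.396 in liver, against 0.242 over all probes, and 49 lay among the 10% of probes of largest SD (32.7%). In brain the median was 0.380, against 0.233, and 37 did (24.7%). Members are brighter than the average probe, and dim probes have little room to vary. Among members detected on at least 8 of the tissue's 16 arrays the medians were 0.469 in liver, against 0.349 over detected probes, and 0.473 in brain, against 0.368. With only the samples numbered below 300, 52 and 45 members lay among that 10%.

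The rule took out the genotype means, so the difference between genotypes was not used to choose the members. In fat, 1 of the 131 members tested passed an adjusted p of 0.05 in limma, and it was lower in KO. Over all probes 5 of 12468 passed (0.0401%). At an unadjusted p under 0.05 there were 49 members (37.4%, against 14.6% of all probes tested). Within the members these were unevenly spread. Group 2 had 25 of 32 at that level (78.1%) with 31 of 32 effects below 0 and a median of -1.27 log2. Group 3 had 5 of 11 with all 11 effects above 0 and a median of 0.58. Group 1 had 2 of 43 (4.65%). The probes of a group were joined by their correlation over these same fat arrays. They repeat 1 pattern of arrays, so these counts are not counts of separate results. The median effect over all probes was 0.02.

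The member that passed, ILMN_2431046, belonged to group 2. In WT it read 9.91, 7.84, 11.75, 12.00, 11.83 and 11.75, and in KO 7.89, 7.23, 7.46, 6.73, 6.45 and 7.65. Only Fat_WT_136 overlapped with the KO samples. The difference was -3.61 log2 (SE 0.58, limma adjusted p = 0.0312). It did not pass on the authors' processed values (adjusted p = 0.0588), without background correction (0.0581), or without Fat_WT_138, Fat_WT_139, Fat_WT_148, Fat_WT_165, Fat_Surf1_KO_164, Fat_Surf1_KO_175, Fat_Surf1_KO_232, Fat_Surf1_KO_237 or Fat_Surf1_KO_241, each left out alone (0.0543 to 0.116).

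The other members of smallest p in each direction did not pass. ILMN_1240943 read 8.83, 8.12, 10.18, 9.96, 9.71 and 10.20 in WT and 7.13, 6.09, 8.43, 6.54, 5.59 and 7.97 in KO, a difference of -2.55 (SE 0.46, limma adjusted p = 0.0545). Only Fat_Surf1_KO_231 reached the range of the WT samples. ILMN_2654651 was brighter in KO by 1.45 (SE 0.29, limma adjusted p = 0.0723), at 10.44 to 11.93 in WT and 11.89 to 13.88 in KO. ILMN_1224546 differed by 2.72 (SE 0.58, limma adjusted p = 0.0738), at 4.85 to 6.88 in WT and 6.97 to 10.98 in KO. It was the only tested member whose genotypes did not overlap, 1 of 131, where 0.770% of all tested probes did not.

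The count in fat rose most when either of 2 WT samples was left out. Without Fat_WT_136, 427 probes passed (3.42% of 12468), and 32 of the 131 members tested did. Of these members, 25 were lower and 7 higher in KO, with 23 of the lower in group 2 and 4 of the higher in group 3. Without Fat_WT_135, 99 probes and 11 members passed. No member passed without any 1 of those 9 arrays, and 2 did without Fat_Surf1_KO_231. Fat_WT_136 is also the array on which most probes of groups 2 and 3 had their largest deviation, 26 of 34 and 7 of 11. Leaving Fat_WT_136 out thus lowers their spread and widens their difference between genotypes, so their calls there follow in part from how members were chosen. With that array left out of the SD, 126 of the 150 members would still be chosen.

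In liver, 0 of 95 members tested passed, as did 0 of 11117 probes (0%) with limma. At an unadjusted p under 0.05 there were 13 members (13.7%, against 6.01% of all probes). In brain, 0 of 100 members and 0 of 12648 probes (0%) passed, with 7 members at that level (7%, against 2.47%). The smallest adjusted p among members was 0.322 in liver, for ILMN_1246473, with a KO minus WT of -0.60. In brain all members had adjusted p values of about 1. For group 2 the median difference was 0.07 in liver and -0.11 in brain, and for group 3 it was 0.08 and 0.14.

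Whether the KO effect of a probe differs between tissues was tested over all 44 arrays. This fit uses 1 spread per probe for all 3 tissues, but the members were chosen for a large spread in fat. Their median SD was 0.996 there, against 0.396 in liver and 0.380 in brain. The shared spread is therefore likely below their fat spread, and the p-values of members in both interactions are likely too small. Between fat and liver it differed for 6 of 88 members, 3 with the higher and 3 with the lower effect in fat (limma interaction), against 49 of 10053 probes (0.487%). At an unadjusted p under 0.05 there were 28 members (31.8%, against 8.37% of all probes). The strongest was ILMN_1240943, for which KO minus WT was -2.55 in fat and 0.73 in liver, a difference of -3.28 (limma adjusted p = 2.29e-05). For ILMN_2431046 the effects were -3.61 and 0.06 (adjusted p = 2.77e-05). In the other direction, ILMN_2699477 had 2.45 in fat and -0.28 in liver (adjusted p = 0.00165), and ILMN_1224546 had 2.72 and 0.09 (adjusted p = 0.00175). Of the 6, 3 belonged to group 2 and 1 to group 3. With samples numbered below 300 alone, 3 members passed, 0 higher and 3 lower in fat, and ILMN_2699477 and ILMN_1224546 did not (limma adjusted p = 0.0508 and 0.0664).

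Between fat and brain the effect differed for 2 of 91 members, against 14 of 10473 probes (0.134%). At an unadjusted p under 0.05 there were 25 (27.5%, against 6.57%). ILMN_2623393 of group 2 had -1.96 in fat and 0.30 in brain (limma adjusted p = 0.00781). ILMN_2738082 of group 3 had 1.69 in fat and -0.56 in brain (limma adjusted p = 0.0141). ILMN_1240943, ILMN_2431046, ILMN_2699477 and ILMN_1224546 were detected on too few brain arrays to be tested there, and both sets of tests use the same fat arrays. With samples numbered below 300 alone both calls were lost (limma adjusted p = 0.291 for each), 0 members and 0 probes passed, and 19 members had an unadjusted p under 0.05. The counts of both interactions also moved with single fat samples. Without Fat_WT_136 they were 13 and 10 members, and without Fat_WT_135 they were 9 and 4. Without Fat_WT_138, Fat_WT_139, Fat_WT_148, Fat_WT_165, Fat_Surf1_KO_237 or Fat_Surf1_KO_241, 4 members remained called between fat and liver. Between fat and brain 1 member was called without Fat_WT_139 or Fat_WT_165, and 3 without Fat_Surf1_KO_164, Fat_Surf1_KO_231 or Fat_Surf1_KO_237.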

How the data were processed

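Total RNA was hybridised as biotinylated cRNA to 44 one-colour Illumina beadchips, per the labels' protocols. The authors deposited a non-normalized intensity for each of 25697 probes and a detection fraction per probe and array. This is named a p-value but rises with intensity, and 1 minus it was taken as the detection p. The authors' processed log2 values (from lumi, per the submitters' processing notes) hold the same sorted values within each tissue. At the dimmest probes they exceed the plain log2 intensity (by 0.27 in fat), and at the brightest they equal it. Their exact transform is unknown here. They were used to choose the members and as an alternative. No label names slide, scan date or fat depot.

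For all other values the deposited intensity was corrected by normexp (neqc, offset 16), quantile normalized within tissue and put on the log2 scale with limma 3.58.1 in R 4.3.3. Probes detected (p under 0.05) on at least 6 fat or 8 liver or brain arrays were tested in limma (lmFit, then eBayes with trend). Tests were two-sided, adjusted by Benjamini-Hochberg over all of them, and read at 0.05. Each probe was its own test. Tissue differences were interaction contrasts over 44 arrays and 6 group means. The fit was tested on simulated data. The number of arrays limits the precision.

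Groups of members came from average linkage on 1 minus Pearson's r of the fat deviations, divided at 0.5. Groups of at least 10 are described. Named probes were the 5 of largest fat SD, 3 on each side of the limit, 3 closest to each group's profile, the 2 higher and 2 lower of smallest p in each comparison and the 2 of largest SD in liver and brain. The rule for members followed across tissues (r above 0.8) and the members it names were chosen after their values were seen. The members, lists and tests were chosen with earlier results of these data known.

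Same-numbered arrays deviated together only in part. Over all detected probes the correlation of deviations was -0.21 to 0.42 between fat and liver (12 numbers) and -0.13 to 0.35 between fat and brain (9 numbers). The alternatives changed the background correction, normalization, values, filter, trend, weights, samples, linkage and measure of spread, and left out each array in turn.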

Additional observations from a re-analysis of the deposited data

Results flagged for a closer look

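A sample was set apart by its gap to the nearest other sample relative to the range of its group, a test that marks about 1 in 20 groups by chance. Fat_Surf1_KO_237 stood apart upwards among the 6 KO fat arrays for the mean of group 1 (10.02) and for its members ILMN_2638721 (11.53), ILMN_2667428 (10.13), ILMN_2681232 (10.68), ILMN_1240294 (9.48), ILMN_1215644 (10.58), ILMN_3151840 (10.61) and ILMN_2624695 (13.74). These probes were chosen for their spread and grouped by it, so the flags repeat the grouping. Fat_Surf1_KO_231 stood apart for ILMN_2623393 (7.16). Among WT fat arrays, Fat_WT_148 was apart downwards for ILMN_2659185 (5.22) and Fat_WT_135 for ILMN_3140158 (4.46).

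In arrays the rule's SD did not use, the mean of group 1 was low in Brain_Surf1_KO_237 (7.59) and Brain_WT_148 (7.60), the numbers of the highest KO and WT fat arrays for that group. Both lay within 0.25 log2 of the other brain arrays. It was high in Liver_Surf1_KO_598 (7.76), and group 3 was high in Liver_WT_679 (9.36).

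The KO effect differed between fat and liver (limma interaction) for ILMN_1240943 by -3.28, ILMN_2431046 by -3.67, ILMN_2699477 by 2.73, ILMN_1224546 by 2.63 and ILMN_2633732 by -1.74 (adjusted p = 0.0243). A further probe outside the naming rule, ILMN_2597515, differed by 1.79 (adjusted p = 0.0383). Between fat and brain it differed for ILMN_2623393 by -2.26 and ILMN_2738082 by 2.25. The fit shares 1 spread between tissues, so the p-values of all these members are likely too small. With samples numbered below 300 alone, ILMN_2699477, ILMN_1224546, ILMN_2623393 and ILMN_2738082 did not pass. ILMN_2633732 passed between fat and liver in 9 of 17 alternative runs.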

How the results depend on the processing

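No value past its threshold changed direction under any alternative run. Alternative values were counted for the 2 higher and 2 lower members of smallest p in each comparison. Of these values, 379 stayed on their side of the threshold, 18 passed it and 17 no longer did. Other named probes were not counted. Which probes are members depended on the scale: 90 of the 150 would be chosen on the background-corrected values and 77 by median absolute deviation, a list of 75 holds 75 of them by construction, and leaving out 1 fat array kept 101 (Fat_Surf1_KO_237) to 145. The share of squares of Fat_Surf1_KO_237 fell to 16.7% with absolute deviations. Groups of at least 10 held 91 to 111 members without single arrays, the largest of them 35 (without Fat_Surf1_KO_237) to 59, in 2 to 5 such groups. With the tree divided at 0.4 there were 2 such groups with 81 members, and with Spearman's correlation 4 with 100, where 40 of the 57 members of group 1 stayed together. Median same-number correlations ran from 0.02 to 0.10 (liver) and 0.01 to 0.13 (brain) without single numbers.

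In fat the count over all probes was 9 with detection on every array, 335 in 1 fit over 44 arrays and 1 to 427 without single arrays. The members' count was 0 without background correction, 0 on the authors' values, 2 with detection on every array, 34 over 44 arrays and 0 to 32 without single arrays. The fit over 44 arrays shares 1 spread between the tissues, so its count of members in fat is likely too high. In liver 192 probes and 6 members passed with array weights, 92 probes over 44 arrays, 24 with the number range as covariate and 0 to 9 without single arrays (0 to 0 members). In brain 1 passed with detection on every array, 1 without trend, 2 with weights, 2 over 44 arrays, 1 with number range and 0 to 1 without single arrays (0 to 0 members).

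For the interactions, shares are of all probes tested. Between fat and liver, 1.07% (108 probes) and 11 members passed without background correction, 1.72% (173) and 12 on the authors' values, 0.389% (100) and 14 without the filter, 0.288% (29) and 3 with samples below 300 alone, and 0.209% to 1.37% and 4 to 13 without single arrays. Between fat and brain these were 0.401% (42) and 4, 0.516% (54) and 6, 0.257% (66) and 11, 0% and 0, and 0.0573% to 0.687% and 1 to 10. With the number as a replicate block (consensus correlation 0.10) 72 probes and 7 members passed between fat and liver and 21 and 3 between fat and brain. Of 12 fat arrays 4 correlated best with the liver of their own number, and of 9 arrays 2 with the brain. Dim members have only a bound where undetected, and 19 could not be tested in fat.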

Other observations

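Members on neighbouring rows of the deposited table were frequent. There were 9 such pairs, 7 of them within the same group, and they involved 17 members (11.3%, against 1.15% of all probes lying next to a member). Over all probes, deviations in fat correlated by a mean of 0.08 between neighbouring rows, 0.00 between rows 50 apart and 0.00 between neighbours in the order of the identifiers. Of neighbouring rows, 91.7% were in the alphabetical order of the deposited names. Probes that share a deposited name correlated by a median of 0.18 (3310 pairs), and all pairs by 0.00. The cause of these patterns was not tested.

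For ILMN_1230318 and ILMN_2607873 no KO fat array was above background, and neither were Fat_WT_135 and Fat_WT_136. Both probes were detected on the other 4 WT arrays. Over all 6 WT arrays, background ones included, the WT mean was 4.56-fold and 3.05-fold the lowest signal counted as detected on the KO arrays (mean 5.07 log2). Each KO signal was undetected and lay no higher than the limit of its own array, so these folds are lower bounds of the difference.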
